A study of Mus musculus with 96 samples.

Results

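Endothelial and mesangial genes were followed through the mouse kidney, from the glomerulus to the last collecting duct. They are 10 genes, 8 expressed by vessel lining cells (Pecam1, Cdh5, Emcn, Kdr, Flt1, Tek, Ehd3 and Plvap) and 2 by mesangial and other mural cells (Pdgfrb and Itga8). They were taken by symbol from the 54532 genes of the table, and all 10 passed the filter on low values, as 33793 genes did. The study charted transcripts by low-input sequencing of polyadenylated RNA from kidney structures dissected under the microscope. All mice were males of the C57BL/6 strain, 6 to 8 weeks old, on normal chow and with no treatment named, and the groups are told apart by the structure dissected. The glomerulus (3 mice) was compared with 14 tubule groups, here in the order in which urine passes them. PTS1 is the beginning of the proximal tubule, PTS2 its straight part in the cortex and PTS3 its end in the outer stripe. DTL1 is the thin descending limb of short loops, and DTL2 and DTL3 are the outer and inner medullary stretches of the limb of long loops. ATL is the thin limb that ascends, MTAL the thick limb in the medulla and CTAL that in the cortex. DCT is the distal convolution, CNT the connecting tubule, and CCD, OMCD and IMCD are the cortical, outer medullary and inner medullary parts of the collecting duct. There were 5 mice in PTS2, CTAL and CCD, 4 in ATL and OMCD and 3 in each other group. Dissection is the only selection of cells that the labels describe, so a piece of tubule can carry vessel that lies against it. Levels are given as TPM, the authors' transcript abundances scaled to the same total in each sample, which are corrected for transcript length, so that genes can be compared within a sample. A mouse's level in TPM is the mean over its pieces, while the limma differences rest on log2(TPM + 1) averaged over pieces.

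The kidney holds several kinds of capillary in series. Blood passes first through the glomerular tuft, whose fenestrated endothelium mostly lacks diaphragms and is held together by mesangial cells. It then passes through the peritubular capillaries and the vasa recta, where fenestrae, if present, are closed by diaphragms. Endothelium in every bed depends on signalling from vascular endothelial growth factor (VEGF) and the angiopoietins, and mural cells depend on platelet-derived growth factor made by endothelium.

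The sequences just upstream of 4 members are shown because these genes carry the main contrasts below: Emcn and Ehd3 are abundant in the glomerulus, and Kdr and Flt1 change their order between tubule groups. Each is the 250 bases before the gene's start in RefSeq annotation of GRCm38.p6, on the gene's strand, 5′ to 3′: Emcn at chr3:137340828-137341077 (plus strand), Kdr at chr5:75978456-75978705 (minus), Flt1 at chr5:147726012-147726261 (minus) and Ehd3 at chr17:73804591-73804840 (plus). Capitals mark the letters of an ETS core, the motif of a transcription factor family with many members in endothelium, on either strand (CCGGAA or AGGAAG, which cannot occupy the same place).
Emcn: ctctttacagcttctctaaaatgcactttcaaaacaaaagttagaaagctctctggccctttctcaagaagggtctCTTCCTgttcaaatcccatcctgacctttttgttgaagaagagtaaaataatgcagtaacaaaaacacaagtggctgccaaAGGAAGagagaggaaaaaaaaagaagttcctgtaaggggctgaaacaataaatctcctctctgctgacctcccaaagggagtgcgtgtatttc
Kdr: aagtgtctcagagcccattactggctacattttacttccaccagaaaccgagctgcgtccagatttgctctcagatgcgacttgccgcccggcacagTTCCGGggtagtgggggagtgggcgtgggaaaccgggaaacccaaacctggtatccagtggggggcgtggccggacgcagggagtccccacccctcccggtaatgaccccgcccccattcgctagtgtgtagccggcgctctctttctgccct
Flt1: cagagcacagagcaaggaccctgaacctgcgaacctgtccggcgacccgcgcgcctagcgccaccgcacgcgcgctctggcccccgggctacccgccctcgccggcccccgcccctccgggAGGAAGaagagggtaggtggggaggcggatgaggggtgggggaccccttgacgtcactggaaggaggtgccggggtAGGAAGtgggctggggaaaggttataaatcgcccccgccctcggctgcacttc
Ehd3: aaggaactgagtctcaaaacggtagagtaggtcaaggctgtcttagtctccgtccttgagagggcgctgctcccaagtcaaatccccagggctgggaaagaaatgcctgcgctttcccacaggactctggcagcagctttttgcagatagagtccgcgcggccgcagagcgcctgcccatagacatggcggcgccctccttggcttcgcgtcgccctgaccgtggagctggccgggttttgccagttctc
The Emcn window held AGGAAG at 2 places, the Flt1 window at 2 places, and the Kdr window held CCGGAA at 1 place. The Ehd3, Tek and Itga8 windows held neither spelling (0 places). Of all 32851 upstream windows of this length in the table, 12% held CCGGAA, 29.5% AGGAAG and 38.2% at least one of them, so that these letters are common. The forkhead core TGTTTAC was in 0 of the 6 member windows and in 3.17% of all windows. Pecam1, Cdh5, Plvap and Pdgfrb were not matched.

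Markers of the distal convolution and of the thick limb fell where the labels put them. Slc12a3, the distal convoluted tubule's salt transporter, averaged 5782 TPM in DCT and at most 8.06 TPM elsewhere, and Slc12a1, that of the thick limb, 4116 to 6135 TPM in CTAL and MTAL and at most 30.9 TPM elsewhere. Odorant and vomeronasal receptor genes, taken as a class, were used as a measure of background. Single ones stood apart: in IMCD the highest reached 20.6 to 42.1 TPM in a mouse, where the 99th percentile was 0.292 to 1.13 TPM. Whether such single genes are background was not tested. Odorant and vomeronasal receptor genes at 1 TPM or more had a median of 860 per mouse in DTL1, of 309 in DTL2, of 484 in DTL3, of 99.5 in OMCD and of 623 in the glomerulus. In ATL they ranged from 17 to 659, and the medians were 24 or fewer in every other group. The part of this background in the levels of the members was not tested, but in DTL1, DTL2 and DTL3 none of these receptor genes reached the level of Pecam1, Emcn, Flt1, Tek, Ehd3 or Plvap in any mouse (0% of receptor genes). For low members the margin was smaller. In DTL1 up to 2.24% of receptor genes stood at or above Kdr in a mouse, up to 2.82% at or above Itga8, up to 4.77% at or above Cdh5 and 10.8% to 34.5% at or above Pdgfrb. For Pdgfrb the highest share was 69.0% in DTL2 and 51.3% in DTL3, and for Itga8 it was 23.4% in DTL3. In ATL 1.03% to 26.3% stood at or above Cdh5, and in ATL and PTS3 the share for Pdgfrb reached 100%, as it does in a mouse where the gene is at 0.

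**Figure D1:**
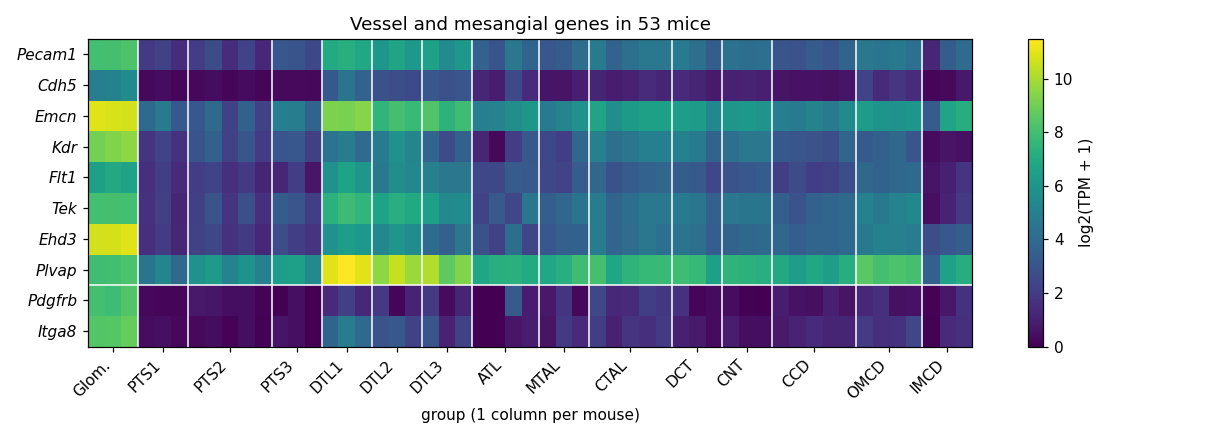
Level of each gene (rows) in each of the 53 mice (columns, grouped by structure) as log2(TPM + 1), averaged over pieces. The glomerulus is bright in all 10 rows, and the 3 descending limb groups are bright in most endothelial rows. Among tubule groups the bottom 2 rows, Pdgfrb and Itga8, are dark apart from Itga8 in the descending limbs. In DTL2 the mean of Cdh5, 5.55 TPM, is close to that of Itga8, 6.19 TPM.

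All 10 members differed among the 15 groups in limma's moderated F-test (adjusted p between 7.47e-26 and 2.76e-14), where 93.9% of all genes tested did, and all 10 differed among the 14 tubule groups, where 91.0% did. The weakest among tubules was Pdgfrb, with a limma adjusted p of 0.0265, and its call rested on single CTAL mice: the adjusted p was 0.0724 without CTAL mouse 1 and 0.0564 without CTAL mouse 4, so that 9 of 10 members then passed. The glomerulus exceeded every tubule group, by at least 1 log2 unit, for 5 of 10 members: Cdh5, Kdr, Ehd3, Pdgfrb and Itga8. Of all genes 3.22% met that test, and the median margin of the glomerulus over the next group was -0.50 log2 units for all genes and 1.47 for the members. The other 5 members, Pecam1, Emcn, Flt1, Tek and Plvap, did not pass. In bulk pieces, fewer cells of a type and less RNA per cell cannot be told apart.

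The junction and surface genes came first in the glomerulus and next in the thin descending limbs. Pecam1 (ENSMUSG00000020717), the adhesion molecule CD31 of endothelial junctions, stood at 267, 269.9 and 309 TPM in the 3 glomerular mice. It stood at 127, 149 and 117 TPM in DTL1, at 64.6, 104 and 68.9 TPM in DTL2 and at 92.9, 45.7 and 68.0 TPM in DTL3. The glomerular and DTL1 values did not overlap, and neither did those of DTL1 and DTL2. Below these, the tubule order by mean was OMCD (21.1 TPM ± 2.76, SD, n = 4), CTAL (20.0 ± 5.22, n = 5), CNT (17.6 ± 0.859, n = 3), DCT (17.5 ± 7.75, n = 3), ATL (13.2 ± 6.67, n = 4), MTAL (11.1 ± 4.61, n = 3), IMCD (8.73 ± 6.99, n = 3), CCD (8.39 ± 2.17, n = 5), PTS3 (6.43 ± 1.57, n = 3), PTS2 (3.21 ± 1.58, n = 5) and PTS1 (2.82 ± 0.996, n = 3). Each of these groups overlapped the next one down, so the order among neighbours is not resolved, while DTL3 lay clear above OMCD. The glomerulus was above DTL1 by 1.11 log2 units (SE 0.41), with a limma adjusted p of 0.0351 for that contrast alone and of 0.104 for the test against every tubule group, on which the calls rest.

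Emcn (ENSMUSG00000054690), the endothelial sialomucin endomucin, had the highest mean of the members in the glomerulus, at 1935, 1799 and 1654 TPM. In glomerular mouse 3 Ehd3 was higher, at 1955 TPM. In DTL1 it stood at 594, 583 and 673 TPM and in DTL3 at 331, 172 and 242 TPM, and every other tubule mouse was at 271 TPM or less. The glomerulus was above DTL1 by 1.54 log2 units (SE 0.56, limma adjusted p = 0.0312 for that contrast alone and 0.0909 against every tubule group). The latter p values of Pecam1 and Emcn moved with the IMCD mice: without IMCD mouse 1 they were 0.0381 and 0.00724, and without IMCD mouse 3 they were 0.0388 and 0.0347. They were also under 0.05 with quantile normalization (0.0364 and 0.0264). Cdh5 (ENSMUSG00000031871), VE-cadherin of the adherens junction, was the least abundant endothelial member in the glomerulus at 29.2, 31.7 and 43.0 TPM. It stood at 7.93, 20.3 and 11.4 TPM in DTL1 and at 5.01 to 7.66 TPM over the mice of DTL2 and DTL3. In PTS1, PTS2 and PTS3 no mouse was above 0.295 TPM. The glomerular margin for Cdh5 was 1.40 log2 units (SE 0.27, limma adjusted p = 0.000108), and the mice did not overlap.

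**Figure D2:**
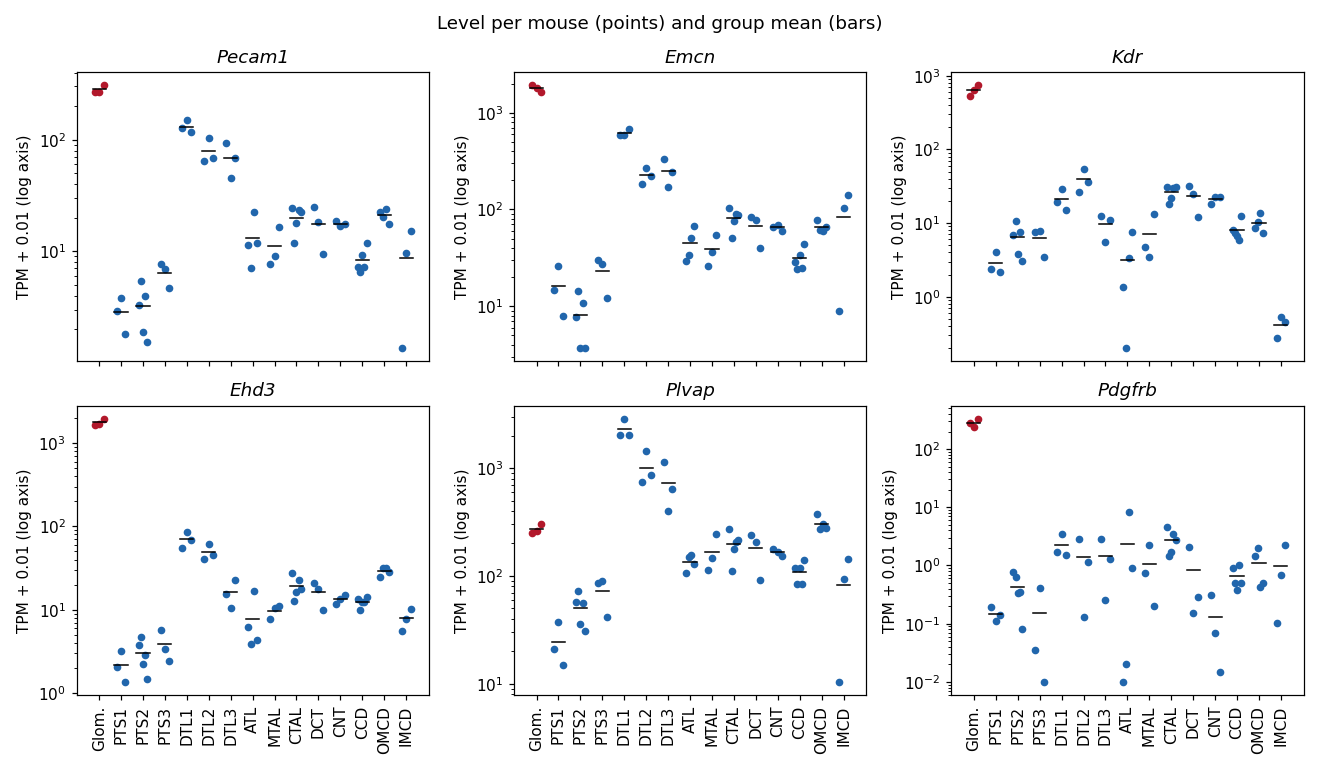
TPM + 0.01 on a log axis for 6 members in every mouse (points; glomerulus red, tubules blue) with group means (bars), by group. Plvap is the one of the 6 whose glomerular mice, at 249 to 304 TPM, lie below all DTL1, DTL2 and DTL3 mice.

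The growth factor receptors did not share one pattern. Kdr (ENSMUSG00000062960), VEGF receptor 2 and the main signalling receptor, stood at 539, 632 and 748 TPM in the glomerulus. The next group, DTL2, stood at 26.4, 54.7 and 36.4 TPM, a margin of 4.08 log2 units (SE 0.46, limma adjusted p = 1.37e-09). Kdr was followed by CTAL (26.4 TPM ± 5.99, SD, n = 5), DCT (23.0 ± 10.3, n = 3), DTL1 (21.1 ± 6.82, n = 3) and CNT (21.0 ± 2.54, n = 3), which overlapped one another. IMCD had the lowest mean, at 0.263, 0.513 and 0.447 TPM, and lay below every PTS1 mouse. ATL mouse 3 was lower still, at 0.19 TPM.

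Flt1 (ENSMUSG00000029648), VEGF receptor 1, which binds VEGF tightly and signals weakly, stood at 92.0, 119.8 and 97.6 TPM in the glomerulus and at 55.9, 101 and 64.2 TPM in DTL1. These ranges overlapped, and the margin of 0.52 log2 units (SE 0.33) had a limma adjusted p of 0.233 against DTL1 alone and of 0.725 against every tubule group. Flt1 averaged 38.0 TPM in DTL2 and 25.3 TPM in DTL3, and lay between 10.95 and 14.0 TPM in the 4 OMCD mice. Tek (ENSMUSG00000006386), the angiopoietin receptor Tie2, was very even in the glomerulus, at 269, 272 and 264 TPM. It stood at 162, 233 and 187 TPM in DTL1, at 101, 144 and 123 TPM in DTL2 and at 89.5, 44.2 and 45.5 TPM in DTL3, and each of these groups was separate from the next. The glomerular margin for Tek was 0.50 log2 units (SE 0.41, limma adjusted p = 0.369 against DTL1 alone and 1 against every tubule group). An alternative chosen after the data were seen left out DTL1 and ATL mice 4 and 6. These tubule mice had most odorant and vomeronasal receptor genes at 1 TPM or more. The glomerular mice were kept, though they had 372 to 840 such genes. DTL1 was the next group below the glomerulus for Pecam1, Emcn, Flt1 and Tek, so leaving it out widens their margins by construction. Pecam1, Emcn, Flt1 and Tek then all exceeded every remaining tubule group (limma adjusted p = 0.000421, 0.000112, 0.000316 and 0.0148), and 9 of 10 members passed.

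The ratio of Kdr to Flt1 within a mouse turned with the part of the kidney. In the glomerulus Kdr was 5.27 to 7.66 times Flt1. It was above Flt1 in all mice of PTS1, PTS2, PTS3, CTAL, DCT, CNT and CCD, with group medians from 1.19 in PTS1 to 5.59 in PTS3. It was below Flt1 in all 3 mice of DTL1 (0.238 to 0.349), all 3 of DTL3 (0.240 to 0.482), all 4 of ATL (0.0416 to 0.929), all 4 of OMCD (0.516 to 0.983) and all 3 of IMCD (0.193 to 0.519). DTL2 and MTAL lay near 1, with medians of 1.08 and 1.05 and 2 of 3 mice above 1 in each. Over the 50 tubule mice 31 had more Kdr than Flt1. In IMCD both genes were low, with Kdr under 1 TPM in each mouse. Flt1 was low in PTS1, PTS2 and PTS3 too, at 0.62 to 3.905 TPM over their mice, so their ratios rest on low values. In ATL up to 14.7% of odorant and vomeronasal receptor genes stood at or above Kdr in a mouse. These ratios are a description, without a test.

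The capillary-type genes went opposite ways between the glomerulus and DTL1. Ehd3 (ENSMUSG00000024065) encodes a membrane trafficking protein known from glomerular endothelium, and Plvap (ENSMUSG00000034845) the protein of the diaphragms that close fenestrae and caveolae. Ehd3 stood at 1648, 1698 and 1955 TPM in the glomerulus, against 55.1, 86.3 and 69.0 TPM in DTL1 and at most 61.7 TPM in any mouse of another tubule group. The margin was 4.68 log2 units (SE 0.35, limma adjusted p = 4.35e-15). Plvap was highest in DTL1 instead, at 249, 259.8 and 304 TPM in the glomerulus and 2015, 2871 and 2017 TPM in DTL1. It averaged 1011 TPM ± 373 (SD, n = 3) in DTL2, 730.2 TPM ± 378 (n = 3) in DTL3 and 306 TPM ± 47.3 (n = 4) in OMCD. The 3 descending limb groups lay above all glomerular mice, and the OMCD mice overlapped the glomerular ones. The glomerulus was below DTL1 by a log2 difference of -3.06 (SE 0.59, two-sided limma adjusted p = 5.55e-05) and below DTL2 by -1.84 (SE 0.59, adjusted p = 0.0118), while the difference from DTL3 of -1.30 (SE 0.59) had an adjusted p of 0.0993, and of 0.0441 with pieces averaged before the log. Against other tubule groups the glomerulus was higher: by 3.54 log2 units over PTS1 (SE 0.59, limma adjusted p = 1.43e-06), 2.52 over PTS2 (adjusted p = 4.05e-05), 2.20 over PTS3 (adjusted p = 0.000929), 1.33 over CCD (adjusted p = 0.0227) and 3.61 over IMCD (adjusted p = 1.46e-06). The IMCD difference was 2.33 (SE 0.50, adjusted p = 9.60e-05) with pieces averaged before the log. The differences from ATL, MTAL, CTAL, DCT, CNT and OMCD did not pass, with adjusted p values from 0.135 in ATL to 0.818 in OMCD. In PTS1, the lowest group by mean TPM, Plvap stood at 21.2, 37.2 and 14.9 TPM, and IMCD mouse 1 was lower, at 10.4 TPM.

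Within each mouse, by TPM averaged over its pieces, Plvap was 0.151 to 0.156 times Ehd3 in the glomerulus. By the same measure Plvap was above Ehd3 in all 50 tubule mice, by 1.85 to 73.5 times with a median of 14.0. The mean log2 ratio, with 1 TPM added to each gene and pieces averaged on the log scale, was -2.70 (SD 0.02, n = 3) in the glomerulus and 3.61 (SD 1.03, n = 50) in tubules, a difference of -6.31. On that log scale tubule mice ran from -0.91 to 6.11, so Plvap was not above Ehd3 in every one of them. An exact two-sided permutation test over 23426 regroupings of the mice gave p = 8.54e-05, the smallest it can give, and 8.54e-05 after adjustment over the 2 ratios tested. Group medians of the ratio ran from 8.95 in CCD to 38.3 in DTL3. The IMCD mouse with the lowest ratio was mouse 1.

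**Figure D3:**
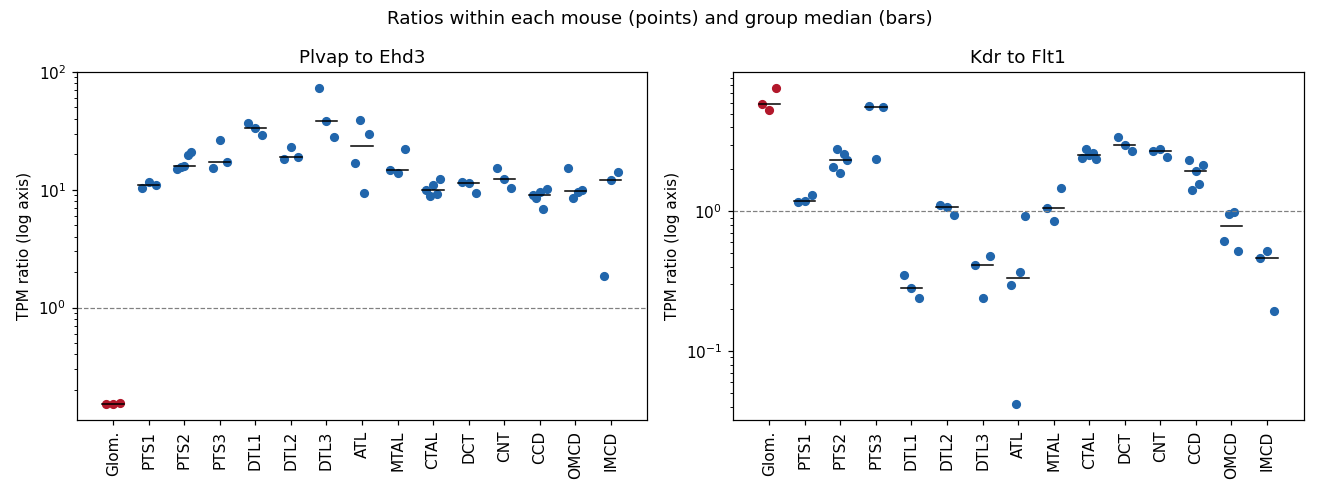
Ratio of TPM within each mouse (points, with group medians as bars) on log axes, for Plvap to Ehd3 at left and Kdr to Flt1 at right, by group; the dashed line marks a ratio of 1. The glomerulus is alone below the line at left, and at right DTL1, DTL3, ATL, OMCD and IMCD lie below it in every mouse.

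Pdgfrb and Itga8 were abundant in the glomerulus and low in the tubule groups. Pdgfrb (ENSMUSG00000024620), the platelet-derived growth factor receptor beta of mesangial cells and pericytes, stood at 277, 238 and 331 TPM there. The highest tubule mouse was ATL mouse 4 at 8.36 TPM, where the 99th percentile of odorant and vomeronasal receptor genes was 15.4 TPM. The group with the highest log level, CTAL, ranged from 1.45 to 4.49 TPM. The margin over CTAL was 6.35 log2 units (SE 0.46, limma adjusted p = 1.79e-14). Itga8 (ENSMUSG00000026768), the integrin alpha 8 chain that pairs with beta 1 and binds nephronectin, stood at 339, 349 and 433 TPM in the glomerulus. In DTL1 it stood at 12.1, 28.4 and 14.4 TPM, and in every other tubule mouse at 7.91 TPM or less. Its margin was 4.38 log2 units (SE 0.37, limma adjusted p = 3.00e-13). Pdgfrb equalled Pecam1 in the glomerulus, with a median ratio of 1.04, and was below it in all 50 tubule mice, at no more than 0.369 times. The mean log2 ratio of Pdgfrb to Pecam1 was -0.01 (SD 0.15, n = 3) against -3.05 (SD 1.35, n = 50), a difference of 3.04 with an exact two-sided permutation p of 8.54e-05, again the smallest possible. It too pools the mice of all tubule groups as exchangeable, with the same limit.

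Tubule groups with more of the members than the rest were sought by setting each one against the mean of the other 13, with a call at an adjusted p under 0.05 and a log2 difference of at least 1. In DTL1 9 of 10 members were higher, all but Pdgfrb, and 44.4% of all genes were. Pdgfrb too was called in DTL1 with a pseudocount of 0.1, at 1.76 log2 units (adjusted p = 0.038), against 0.75 with 1 TPM added. In DTL2 9 of 10 were higher, again all but Pdgfrb, where 11.2% of all genes were. In DTL3 6 of 10 were higher (Pecam1, Cdh5, Emcn, Flt1, Tek and Plvap), where 21.8% of all genes were. Itga8 was at 0.83 log2 units (SE 0.27) in DTL3 and was called there without DTL3 mouse 2, at 1.33 (adjusted p = 0.000352). CTAL had 2 of 10, Kdr by 1.63 log2 units (SE 0.27) and Pdgfrb by 1.04 (SE 0.29), against 3.87% of all genes. Kdr was also the 1 member called in DCT (1.35 log2 units, SE 0.34; 3.41% of all genes) and in CNT (1.29, SE 0.34; 4.48%). OMCD had 2 of 10, Ehd3 by 1.32 log2 units (SE 0.22) and Tek by 1.07 (SE 0.26), against 9.19% of all genes. Plvap lay at the minimum in OMCD, just under 1 log2 unit (adjusted p = 0.0346), and was called in 17 of the 53 fits with 1 mouse left out, at no more than 1.09. No member (0 of 10) was called higher in PTS1, PTS2, PTS3, ATL, MTAL, CCD or IMCD, where 3.78%, 4.55%, 3.84%, 10.7%, 2.90%, 5.30% and 6.50% of all genes were. A group without a call can still hold these transcripts: Plvap averaged 167 TPM in MTAL, 136 TPM in ATL and 109.5 TPM in CCD, and Emcn 84.4 TPM in IMCD.

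The descending limb calls stand against a shift of all genes. The median gene was higher by 0.88 log2 units in DTL1, 0.54 in DTL3 and 0.30 in DTL2. Against that, Plvap was higher by 4.11 (SE 0.43), Tek by 3.81 (SE 0.30), Emcn by 3.74 (SE 0.41), Flt1 by 3.34 (SE 0.24) and Pecam1 by 3.27 (SE 0.30) in DTL1. Of the 9 members called there, Kdr was closest to the median, at 1.29 log2 units (SE 0.34), and Pdgfrb, not called, was at 0.75 (SE 0.37). In DTL2, Tek led with 3.10 log2 units (SE 0.30), followed by Plvap with 2.80 (SE 0.43). In DTL3 Emcn led with 2.27 (SE 0.41), and Pecam1 with 2.23 (SE 0.30) and Plvap with 2.22 (SE 0.43) were alike. Rescaling each mouse by its median ratio ended the calls of Kdr in DTL1 (0.72 log2 units) and of Tek and Ehd3 in OMCD (0.65 and 0.91), and leaving out DCT mouse 1 ended that of Kdr in DCT (1.06, adjusted p = 0.0592). Quantile normalization, which takes the shift away, left the DTL1 differences of the other 8 called members above 1 log2 unit, but Kdr at 0.26 there, and put Cdh5 in DTL2 (0.87) and DTL3 (0.94) and Itga8 in DTL2 (0.96) just under it. The CTAL difference of Pdgfrb fell to 0.87 without CTAL mouse 1 and to 0.99 without mouse 4, and the OMCD difference of Tek to 0.97 without OMCD mouse 4, each under the minimum of 1.

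**Figure D4:**
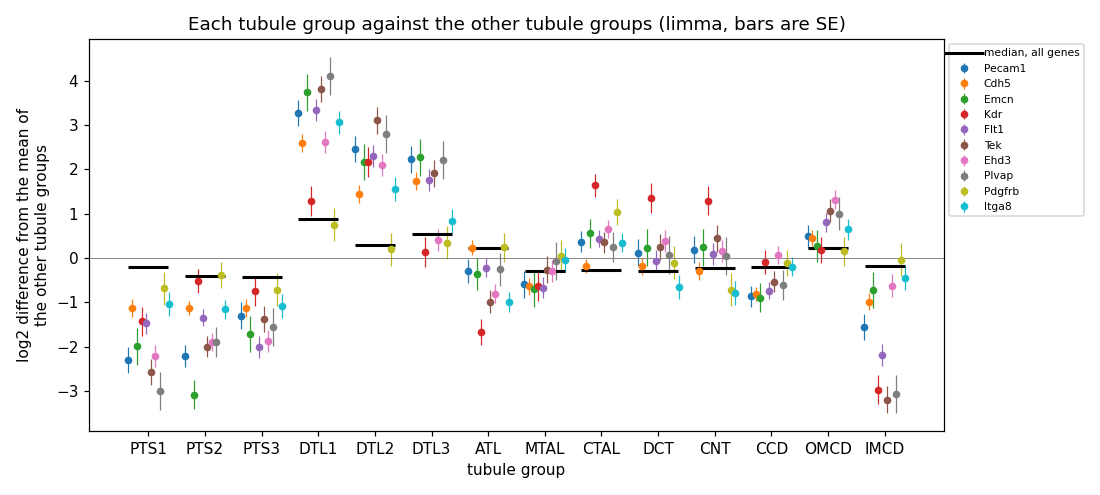
Log2 difference of each tubule group from the mean of the other 13, for each member (points with standard errors, limma), with the median over all genes as black bars. The endothelial members lie above the bar in DTL1 and DTL2, with Kdr, at 1.29, near it in DTL1; Kdr stands out in CTAL, DCT and CNT, and most members lie below 0 in PTS1, PTS2, PTS3 and IMCD.

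Pieces of one mouse showed how uneven vessel transcripts can be within a segment. The 2 glomerular pieces of a mouse differed by no more than 1.26-fold for any member. In IMCD, Plvap ranged from 0.14 to 243 TPM over 9 pieces and Emcn from 0.57 to 256 TPM. Within mouse 2 alone, the pieces stood at 243, 0.57 and 36.3 TPM for Plvap and at 22.9, 0.26 and 5.77 TPM for Pecam1. Both genes were highest in the same piece and lowest in the same piece. Ehd3 ranged only from 4.87 to 11.5 TPM over these 9 pieces, a 2.37-fold span against 1734-fold for Plvap, and was at 5.32 TPM in the piece with the least Plvap. Kdr stayed at or below 1.12 TPM in all 9 pieces, including that with 243 TPM of Plvap.

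**Figure D5:**
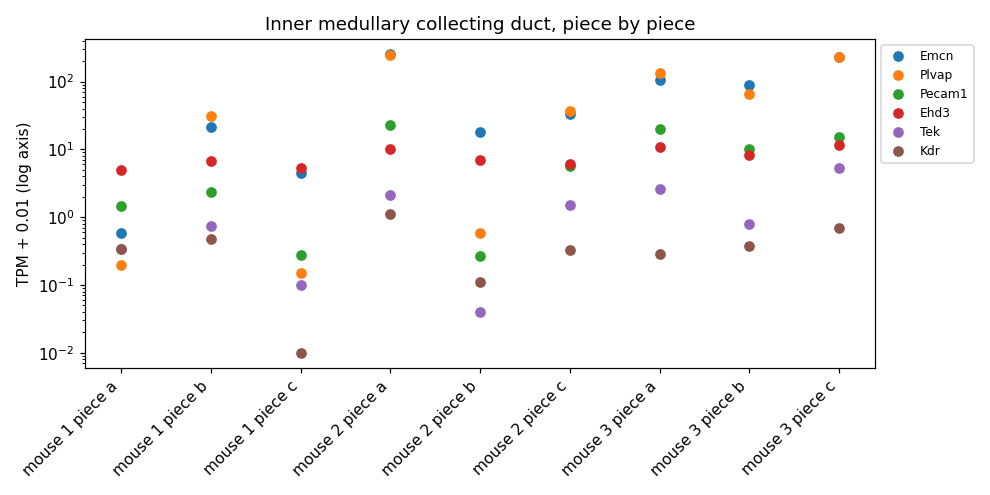
TPM + 0.01 on a log axis for 6 members in each of the 9 IMCD pieces, labelled by mouse and piece. Plvap and Emcn range over more than 100-fold, while Ehd3 stays between 4.87 and 11.5 TPM.

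Across the means of the 14 tubule groups, most members ran together, as a description over groups that share library method and background. Pearson's r of log2(TPM + 1) with Pecam1 was 0.96 for Cdh5, 0.98 for Emcn, 0.96 for Flt1, 0.96 for Tek, 0.97 for Plvap, 0.90 for Ehd3 and 0.88 for the mesangial gene Itga8. It was 0.68 for Kdr and 0.64 for Pdgfrb. Of the 3 genes most like each member over these 14 means, 27 different genes, 4 were on the list of other pan-endothelial genes: S1pr1, Egfl7, Adgrl4 and Mmrn2. For Pecam1 they were S1pr1 (r = 0.99), the sphingosine-1-phosphate receptor, Pde2a and Egfl7. For Emcn they were Gngt2 (r = 0.98), Egfl7 and S1pr1, and for Cdh5 Fgd5 (r = 0.99), She and Lrrc8c. For Tek they were Adgrl4 (r = 0.99), Mmrn2 and Gimap6, for Flt1 Gimap5 (r = 0.99), St6galnac4 and Exoc3l2, and for Plvap Exoc3l2 (r = 0.99), Rasip1 and Exoc3l. Those of Ehd3 were Ifitm3 (r = 0.96), Pip4k2a and Ipo11, and those of Itga8 were Sncaip (r = 0.96), Chst2 and Rap1gapos. The likeness was lower for Kdr, whose nearest were Ccrl2 (r = 0.93), Gimap4 and Ifi204, and for Pdgfrb, whose nearest were Lhfp (r = 0.87), Pknox2 and Sema6d.

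Lists of other vessel genes were set beside the members. Of 24 other pan-endothelial genes, 13 were higher in the glomerulus than in every tubule group, where 3.22% of all genes were, with a median margin of 1.28 log2 units, and all 24 differed among tubules, where 91.0% of all genes did. Against the other tubule groups, 23 of 24 were higher in DTL1, 22 in DTL2 and 18 in DTL3, beside 44.4%, 11.2% and 21.8% of all genes. Their summed level was 5493 to 5773 TPM in the glomerulus, 1870.0 to 2644 TPM in DTL1 and 73.6 to 108 TPM in PTS1. In ATL 2 of 24 were called higher, where 10.7% of all genes were. Esam, an adhesion molecule of endothelial junctions, was highest in ATL (619.6 TPM ± 215, SD, n = 4) against 389 TPM in the glomerulus, and Adgrf5, an adhesion receptor, was highest in OMCD (398 TPM ± 87.5, n = 4) against 231 TPM; both were named after their values were seen. Cldn5, a tight junction claudin, averaged 575 TPM in the glomerulus and 6.64 TPM in DTL1, a margin of 6.48 log2 units (SE 0.45, limma adjusted p = 4.63e-16), while Egfl7, a secreted endothelial protein, averaged 1148 and 428 TPM. Of 8 genes listed for glomerular capillaries, 6 exceeded every tubule group (3.22% of all genes), among them Plat, tissue plasminogen activator (5432 TPM ± 1102, SD, n = 3). Lpl and Tbx3 did not pass; Lpl was highest in PTS2, at 1987 TPM. Against the other tubule groups, 2 of these 8 were higher in DTL1 (44.4% of all genes), 0 in DTL2 (11.2%) and 1 in DTL3 (21.8%). In each of PTS2 (4.55%), PTS3 (3.84%) and IMCD (6.50%) 2 of 8 were higher, and at most 1 in any other tubule group. Of 7 genes listed for peritubular capillaries and vasa recta, 6 were higher in DTL2 than in the other tubule groups, beside 11.2% of all genes, but 1 in DTL1 (44.4% of all genes), 1 in DTL3 (21.8%), 4 in CTAL (3.87%) and 2 in each of PTS2 (4.55%), PTS3 (3.84%), DCT (3.41%) and CNT (4.48%). In the glomerulus 2 of 7 exceeded every tubule group (3.22% of all genes): Npr3, a natriuretic peptide clearance receptor, at 72.8 TPM against 3.00 TPM in DTL2, the highest tubule group, and Gpihbp1, which holds lipoprotein lipase on capillaries, at 170.2 TPM against 41.9 TPM in CTAL. Cd36 was most abundant in PTS2 (779 TPM ± 92.3, SD, n = 5).

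Ligands and partners of the members were read beside them. Of 14, 4 exceeded every tubule group in the glomerulus, where 3.22% of all genes did: the ligands Vegfa and Pdgfb and the partners Nrp1 and Itgb1. The median margin of the list was -0.79 log2 units. Vegfa, the ligand of Kdr and Flt1 made by podocytes, averaged 999 TPM ± 106 (SD, n = 3) in the glomerulus and 156 TPM ± 21.7 (n = 3) in CNT, the next group, a margin of 2.67 log2 units (SE 0.18, limma adjusted p = 1.95e-16). Nrp1, a VEGF co-receptor, averaged 1374 TPM ± 136 in the glomerulus. Angpt2, a ligand of Tek, averaged 2204 TPM ± 592 (SD, n = 3) in DTL1, 587 TPM in DTL3 and 509 TPM in DTL2, against 71.9 TPM ± 5.44 in the glomerulus. Angpt1, the agonist ligand of Tek, was highest in DCT at 20.1 TPM ± 2.83 (n = 3). Npnt, nephronectin, the ligand of the Itga8 integrin, averaged 1205 TPM ± 282 (n = 4) in OMCD and 818 TPM ± 82.5 (n = 3) in the glomerulus.

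Markers of other cell types moved with the vessel genes in part. All 7 podocyte genes listed exceeded every tubule group in the glomerulus, as 3.22% of all genes did, and their sum there was 4934 to 6677 TPM, against 91.7 to 117 TPM in DTL1. Of 15 other mural and smooth muscle genes, 11 exceeded every tubule group, beside the same 3.22%, with sums of 2168 to 2577 TPM in the glomerulus and 99.9 to 124 TPM in DTL1. The 10 leukocyte genes summed to 454 to 582 TPM in the glomerulus, 174 to 310.1 TPM in CTAL and 103 to 236 TPM in DTL1. The 7 erythroid and platelet genes summed to 205 to 567 TPM in the glomerulus, and 3 of 7 were at 0 in every DTL1 mouse, where the sum was 6.77 to 162 TPM. The 6 fibroblast genes, 5 of them tested, summed to 220 to 315 TPM in the glomerulus and 43.8 to 67.6 TPM in DTL1. Against the other tubule groups, 5 of 7 podocyte, 10 of 15 mural, 5 of 5 fibroblast, 3 of 10 leukocyte and 2 of 7 erythroid and platelet genes were higher in DTL1, beside 44.4% of all genes and 9 of 10 members. In the same order of lists, 3, 2, 0, 1 and 0 genes were higher in DTL2, beside 11.2% of all genes. In DTL3 the counts were 2, 4, 2, 1 and 0, beside 21.8%. In CTAL, CNT and DCT, where Kdr was called, leukocyte genes were called higher too: 6 of 10 in CTAL (3.87% of all genes), where Pdgfrb was also called, 6 of 10 in CNT (4.48%) and 4 of 10 in DCT (3.41%). In CTAL 2 of 7 erythroid and platelet genes were also called, with sums of 8.32 to 85.4 TPM. The part of these cell types in the levels of the members was not tested.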

How the data were processed

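The authors deposited 1 table of TPM, which sum to between 999998.6 and 1000190.3 in each sample, for 54532 genes in 93 samples, 87 of tubule and 6 of glomerulus. Per the labels' protocols, libraries came from SMARTer V4 cDNA by Nextera XT. The submitters' processing notes name STAR 2.5.4a and RSEM 1.3.0; the genome build and annotation are not given in the sources used here. TPM keep no depth, so the depth is unknown and no counting interval is given. The authors' 14 mean columns were not used, and 3 single-cell (10X) samples were not analysed here.

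Samples were assigned by column name. For 1 PTS2 column the piece letter matched no title, and it was used as a mouse of its own with the number in its name set aside. Pieces were averaged within each of the 53 combinations of mouse number and segment, and the mouse is the replicate. Mouse numbers recur between segments, and the sample titles do not say whether equal numbers are the same animal. Each combination was therefore counted as a mouse, and segments were not paired. limma 3.58.1 (R 4.3.3, eBayes with trend) was fitted to log2(TPM + 1) of the 33793 genes with at least 1 TPM in at least 3 mice, with all 15 groups sharing 1 spread, and p values were adjusted by Benjamini-Hochberg over all genes tested. This scale understates the changes of low genes. The glomerulus was set against every tubule group by an intersection-union test (the largest one-sided p of the 14 contrasts), and each tubule group against the mean of the other tubule groups by two-sided contrasts, both at 0.05 and 1 log2 unit. Ratios were tested by exact permutation (scipy 1.17.1). Tested on simulated data with 200 of 33793 genes raised by 3 log2 units in the glomerulus, the first test recovered 97% with 0 others called. Of 200 raised by 2.5 in DTL1 the second recovered 97.5% with 1 other. Genes not raised were simulated without group differences, whereas 91.0% of genes differed among tubule groups in the data. These counts of others called therefore need not hold for the data. Named genes are the members, the genes with the highest means in each list, and the 3 most like each member by Pearson's r over tubule group means. A few other genes of the lists (Angpt1, Pdgfb) and the segment markers were named after their values were seen. The result of 1 further gene is not reported here. Members and lists were chosen with earlier results of these data known. Alternatives were other pseudocounts, filters, scalings and averaging, samples as replicates, a replicate block and each mouse left out. Tables were handled in pandas 2.3.3 (Python 3.11.15) and plots drawn with matplotlib 3.10.9.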

Additional observations from a re-analysis of the deposited data

Results flagged for a closer look

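Of 50 combinations of member and group with 4 or 5 mice, 2 held 1 mouse far from the others by Dixon's ratio, about as many as the 1 in 20 that chance gives. Pdgfrb stood at 8.36 TPM in ATL mouse 4, against 0 to 0.9 TPM in the other 3 ATL mice. ATL mouse 4 had 576 odorant and vomeronasal receptor genes at 1 TPM or more, with a 99th percentile of 15.4 TPM. Flt1 stood at 10.95 TPM in OMCD mouse 2, against 13.7 to 14.0 TPM in the other 3.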

How the results depend on the processing

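All 10 members differed among the 15 groups under every alternative run. Among tubule groups Pdgfrb lost its call with a pseudocount of 5 (limma adjusted p = 0.111) and without CTAL mouse 1 (0.0724) or 4 (0.0564). No direction reversed. The 2 ratio tests kept their calls under the alternatives run for them: other pseudocounts, pieces averaged before the log, samples as replicates and each mouse left out. They were not run under the other alternatives. The number of members higher in the glomerulus than in every tubule group was 5. It was 9 with DTL1 and ATL mice 4 and 6 left out, which removes the highest tubule group for 8 of 10 members. It was 7 with a pseudocount of 5 and with quantile normalization, and 5 to 7 with 1 mouse left out. Calls of a member higher in 1 tubule group than in the others numbered 30, and 21 to 37 across pseudocounts, 24 with quantile normalization and 29 to 31 with 1 mouse left out. A replicate block by mouse number left both counts at 5 and 30: Plvap in OMCD was gained (1.03 log2 units, adjusted p = 0.0452) and Pdgfrb in CTAL lost (0.97, adjusted p = 0.0083), which also fell under 1 log2 unit without CTAL mouse 1 (0.87) or 4 (0.99). A pseudocount of 5, which shrinks low genes, took 9 of the 30 calls under 1 log2 unit, and one of 0.1 added 7, among them Pdgfrb in DTL1 (1.76) and Itga8 in DTL3 (1.60). Itga8 in DTL3 was also gained without DTL1 and ATL mice 4 and 6 (1.11), as were Plvap (1.33) and Flt1 (1.10) in OMCD. That of Tek in OMCD fell to 0.97 without OMCD mouse 4. Mice with the same number did not deviate together (median r of 0.0022 over 290 pairs, -0.0011 over 968 other pairs), so these values showed no pairing by number. Depth is unknown, so the precision of members near 0 TPM, such as Pdgfrb in tubules, cannot be stated, and most groups rest on 3 mice.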
